A study of Caenorhabditis elegans with 16 samples.

Results

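The comparison set a prg-1 mutant beside a strain with prg-1 intact, both carrying an intronless cdk-1::gfp reporter. The libraries were chosen by their titles, WM737 for prg-1 and WM730 for prg-1 intact, which makes 2 of the 16 libraries of the series, 1 for each strain. WM737 carried the allele prg-1(tm872) and the intronless insertion neSi73. WM730 had no prg-1 allele in its genotype and carried the intronless insertion neSi71. In both, the insertion was on chromosome II with the rescue marker Cbr-unc-119(+), in an unc-119(ed9) III background, so that the worms kept their own cdk-1 gene. For some results 2 more libraries of this reporter are set beside them. WM734 carried rde-3(ne3370) and the intronless insertion neSi71, with no unc-119 allele in its genotype. WM242 carried the intron-containing insertion neSi12 in the unc-119(ed9) background, with no mutation of a small RNA gene listed. Since the insertions of WM737 and WM730 bear different allele numbers, an effect of prg-1 and one of the insertion cannot be told apart. The small RNA was that of whole worms from a synchronous population, in which fewer germ cells and fewer small RNAs per cell cannot be told apart.

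prg-1 codes for a Piwi Argonaute that binds piRNAs, small RNAs that in worm germ cells recognise foreign transcripts. Recognition of a target recruits RNA-dependent RNA polymerases, which copy the messenger into antisense 22G-RNAs, so named for their length and first base, and these load worm-specific Argonautes that silence the gene. Other 22G-RNAs, bound by the Argonaute CSR-1, are made on many genes that are expressed in the germ line. The question was whether the 22G-RNAs on an intronless reporter need prg-1. cdk-1 is a cyclin-dependent kinase of the cell cycle, and gfp is a jellyfish gene with no counterpart in the worm. The worm's own cdk-1 gene spans 9747472 to 9748852 of chromosome III, and prg-1 spans 7585329 to 7588367 of chromosome I (build WBcel235). The reporter reference spans 1966 bases without introns. It holds 42 bases before the start codon, the cdk-1 coding part of 1002 bases, gfp of 720 bases with the stop codon, and a 3′ flank of 202 bases. Sites below are numbered within their part, and a site is the base that pairs with the 5′ G of a read.

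Each library listed only reads of 22 nt that began with G and ran antisense to the reporter. The prg-1 library held 3148 such reads as 275 distinct sequences, and the intact library 3126 reads as 329. Levels are the deposited values in ppm, where 1 read was worth 0.504 ppm in prg-1 and 0.437 ppm in the intact library. The sources used here do not say what the reads were scaled by. With 1 library a side no test was possible, each ratio compares those libraries and not the genotypes, and 95% intervals in parentheses cover counting error only, since copies made by PCR were not told apart by molecular identifiers. The loss of prg-1 itself was not checked, as the files used here hold reads on reporters alone.

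Reads at 11 sites are shown as examples of what differed or stayed alike between the libraries. They are printed 5′ to 3′ in DNA letters, as listed in the files, with the base that pairs with the site in capitals. The 4 highest sites of the middle of gfp in prg-1 come first, since this was where prg-1 stood furthest above the intact library.
gfp base 450: Gtatacattgtgtgagttatag
gfp base 333: Gacttcagcacgtgtcttgtag
gfp base 426: Gtattccaatttgtgtccaaga
gfp base 453: Gatgtatacattgtgtgagtta

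The following pair were the highest sites of the intact library and lay upstream of that middle.
gfp base 235: Gtttcatatgatctgggtatct
gfp base 202: Gaacaccataacagaaagtagt

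Next are gfp sites among the smallest ratios of prg-1 over intact.
gfp base 620: Gaaagggcagattgtgtggaca
gfp base 84: Gacagaaaatttgtgcccatta

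A read across the stop codon shows where antisense reads ran from the 3′ flank into gfp. Capitals mark the bases that pair with the flank.
3′ flank base 8: GAATTACAtcaagatcctttgt

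The last pair were among the 3 highest sites of cdk-1 coding in the intact library.
cdk-1 base 60: Gttgagtgtgtaaaccgaatct
cdk-1 base 300: Gaattcgaagatcaggaaaagc

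Antisense reads on gfp were present at a high level without prg-1, while those on cdk-1 coding were lower. gfp had 1491 ppm (1438 to 1546) in prg-1, against 1155 ppm (1112 to 1200.3) in the intact library, a ratio of 1.29 (1.22 to 1.36). By contrast, cdk-1 coding had 65.6 ppm (54.8 to 77.9) in prg-1 and 162.6 ppm (146 to 180) in the intact library, a ratio of 0.403 (0.328 to 0.494). gfp thus took 93.9% of the prg-1 reads (93.0 to 94.7), against 84.6% of the intact reads (83.3 to 85.8). The number of gfp reads for each cdk-1 coding read, which no scaling touches, was 22.7 in prg-1 and 7.11 in the intact library. The prg-1 figure was 3.20 times the other (2.60 to 3.93). No read lay in the 5′ flank of either library, where 3 reads would have been 1.51 ppm in prg-1 and 1.31 ppm in the intact library.

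**Figure D1:**
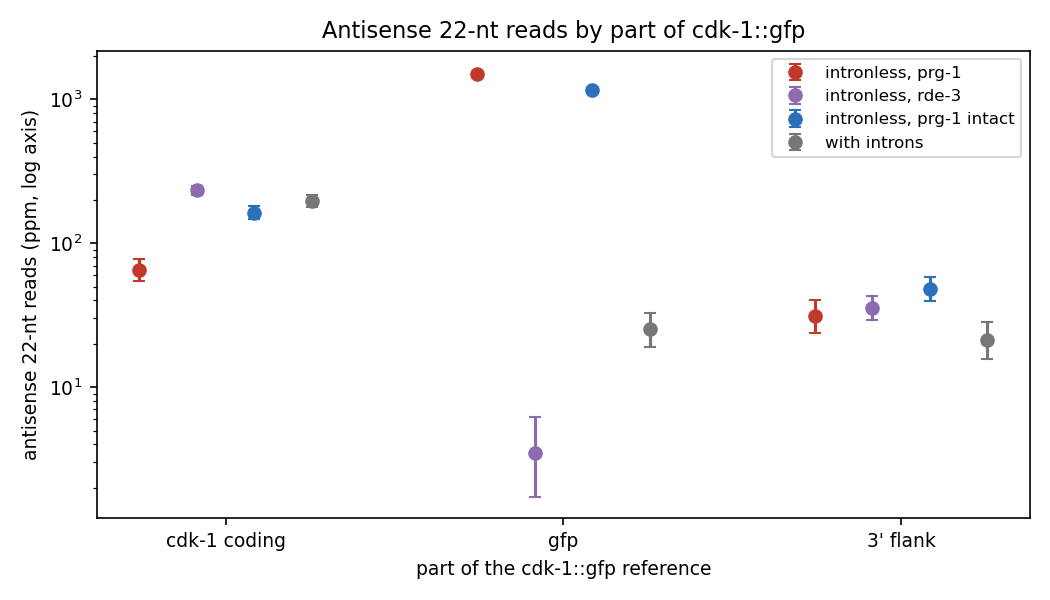
Level of antisense 22-nt reads (ppm, log axis) on cdk-1 coding, gfp and the 3′ flank in 4 cdk-1::gfp libraries, 1 point per library with its 95% counting interval. On gfp the prg-1 point (1491 ppm) stands above the intact one (1155 ppm), and on cdk-1 coding it is the lowest of the 4 (65.6 ppm).

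The same sites of gfp were used in both libraries. Reads began at 131 gfp positions in prg-1 and at 130 in the intact library, and 118 of these were shared. The 13 positions found in prg-1 alone held 29 reads, at most 6 each, and the 12 found in the intact library alone held 16 reads, at most 5 each. Of the 138 C bases of gfp, 124 paired with a 5′ G in prg-1 and 120 in the intact library. Only 11 had no read in either, and 2 of these had none in the corresponding libraries of the gfp::his-61 reporter described below. Across the 138 C bases levels in the libraries were correlated (Pearson 0.90, Spearman 0.92), with neighbouring reads overlapping in sequence. Among the 10 highest gfp positions of each library, 7 were shared. The 10 highest held 42.5% of the gfp reads in prg-1 (40.7 to 44.3) and 38.2% in the intact library (36.3 to 40.1). The 189 sequences found in both libraries made up 68.7% of the prg-1 sequences and 57.4% of the intact ones, and held 96.4% of the prg-1 reads and 92.7% of the intact reads.

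The second base of the reads was alike in both libraries, and the base that follows the site was A more often in prg-1. The second base of gfp reads was U (T in the files) in 60.4% of prg-1 reads (58.6 to 62.2) and 59.8% of intact reads (57.9 to 61.7), whereas 42.8% of the C bases of gfp would give it. The base that follows the paired C in the messenger was A for 63.4% of prg-1 reads (61.6 to 65.1) and 56.5% of intact reads (54.6 to 58.4), against 43.5% of the C bases. These intervals treat reads as independent, though many share a site. Bases 450 and 426 of gfp, both higher in prg-1, are followed by A, so this difference is not separate from theirs.

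**Figure D2:**
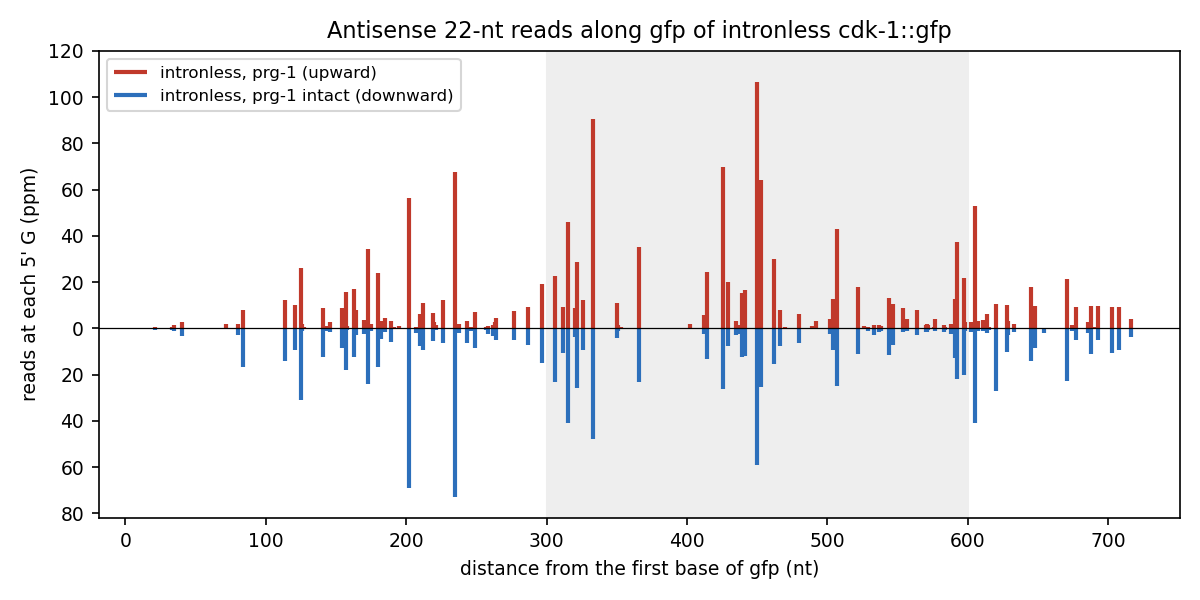
Level at each position of gfp (ppm) against the distance from its first base, upward for prg-1 and downward for the intact library, with bases 301 to 600 shaded. The tallest prg-1 site is base 450 (106 ppm) inside the shaded part, and the tallest intact site is base 235 (73.0 ppm) upstream of it.

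In ppm, the excess of gfp reads in prg-1 lay mostly in the middle of gfp. Windows of 100 nt were counted from its first base. Bases 401 to 500 had 377 ppm (350.2 to 405) in prg-1, against 194 ppm (177 to 213) in the intact library, a ratio of 1.94 (1.72 to 2.18). The windows on either side had smaller ratios. Bases 301 to 400 had 266 ppm in prg-1 and 191 ppm in the intact library, a ratio of 1.40 (1.23 to 1.59). Bases 501 to 600 had 217 ppm in prg-1 and 149 ppm in the intact library, a ratio of 1.45 (1.26 to 1.68). These 3 windows together, a division chosen after the values were seen, had 860 ppm (820 to 902) in prg-1 and 534 ppm (505 to 565) in the intact library, a ratio of 1.61 (1.49 to 1.73). They held 57.7% of the gfp reads in prg-1 (55.9 to 59.5), against 46.3% in the intact library (44.3 to 48.2), a difference that does not rest on the scaling.

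Outside the middle, gfp had 631 ppm in prg-1 and 621 ppm in the intact library, a ratio of 1.02 (0.941 to 1.10), or 0.880 (0.815 to 0.951) on unscaled reads. With the middle moved 50 nt, settings chosen after the values were seen, it was 1.06 (0.988 to 1.14) upstream and 1.09 (1.01 to 1.17) downstream. Scaling by cdk-1 coding reads raises every ratio by 1.31 on the log2 scale, which puts gfp outside the middle above 1 too. The window of bases 101 to 200 had a ratio of 1.11 (0.958 to 1.28), that of bases 201 to 300 one of 0.949 (0.835 to 1.08), and that of bases 601 to 700 one of 1.10 (0.944 to 1.27). The intervals of these windows include 1. The last 20 bases had 44 reads in prg-1 and 55 in the intact library. The first 100 bases of gfp, next to cdk-1, were lower in prg-1, with 17.7 ppm (12.3 to 24.6) against 27.5 ppm (21.2 to 35.2) in the intact library, a ratio of 0.641 (0.412 to 0.984) that turned to 1.59 when each library was scaled by its cdk-1 coding reads. This window was poorly covered in both libraries, with 1.60 ppm per C base in prg-1 and 2.50 ppm in the intact library, while bases 401 to 500 had 20.9 ppm per C base in prg-1 and 10.8 ppm in the intact library.

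Single sites are counted here from the same reads. Since the middle was chosen from those reads, a split of the sites along it is no separate support. Of the positions with at least 20 reads over both libraries, 67 could be compared, 64 of them in gfp. Over the whole reference 11.9% of the positions were at least 2-fold higher in prg-1, which is 8 positions, and 8.96% were at least 2-fold lower, which is 6. Scaled by cdk-1 coding reads, 59 positions were higher and 0 lower by that fold. In ppm, all 8 higher positions were in gfp, 7 of them among the 29 compared in its middle and 1 among the 35 outside. Of the 6 lower ones, 2 were the only positions of cdk-1 coding that had enough reads and 4 were in gfp outside its middle. The median ratio was 1.52 over the middle positions, 1.00 over the other gfp positions and 1.15 over all 67. In the middle 25 of 29 positions had a ratio above 1, and outside it 18 of 35.

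Base 450 was the highest site of the prg-1 library. It had 211 reads or 106 ppm in prg-1, against 135 reads or 59.0 ppm in the intact library, a ratio of 1.80 (1.45 to 2.26). Base 453, whose read overlaps that of base 450, had 127 reads in prg-1 and 58 in the intact library, a ratio of 2.53 (1.84 to 3.51). Both exceeded the intact library by more than the counting intervals, though they were named as high sites of prg-1, which favours ratios above 1. Base 426 had 138 reads or 69.6 ppm in prg-1, against 60 reads or 26.2 ppm in the intact library, a ratio of 2.65 (1.95 to 3.66). Its overlapping neighbour, base 429, had 40 reads in prg-1 and 18 in the intact library, a ratio of 2.56 (1.44 to 4.75). Base 333 had 179 reads in prg-1 and 110 in the intact library, a ratio of 1.88 (1.47 to 2.40). The 5 largest ratios were completed by sites of few reads. Base 554 had 17 reads in prg-1 and 4 in the intact library, a ratio of 4.91 (1.60 to 20.04). Bases 164 and 564 each had 16 reads in prg-1 and 7 in the intact library, a ratio of 2.64 (1.03 to 7.58). These 5 sites were picked by their ratios, so their intervals are no test of a higher level.

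Of the 8 highest sites of the intact library, bases 450 and 333 were higher in prg-1 as given above, base 620 was lower, and the other 5 did not differ by more than counting error. Base 235 had 134 reads or 67.6 ppm in prg-1, against 167 reads or 73.0 ppm in the intact library, a ratio of 0.926 (0.732 to 1.17). Base 202 had 112 reads or 56.5 ppm in prg-1, against 158 reads or 69.0 ppm in the intact library, a ratio of 0.818 (0.636 to 1.05). Both intervals include 1, as did those of bases 315, 605 and 125. These had ratios of 1.12 (0.828 to 1.51), 1.29 (0.967 to 1.72) and 0.845 (0.579 to 1.23). Base 620 had 21 reads or 10.6 ppm in prg-1, against 62 reads or 27.1 ppm in the intact library, a ratio of 0.391 (0.226 to 0.6503). Base 84 had 16 reads in prg-1 and 38 in the intact library, a ratio of 0.486 (0.253 to 0.893), and base 243 had 6 in prg-1 and 15 in the intact library, a ratio of 0.462 (0.147 to 1.26). Bases 620, 84 and 243 were picked as being among the smallest ratios, and naming high sites of the intact library also favours ratios below 1. Their intervals are thus no test of a lower level.

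The same gfp on another intronless reporter had its largest and smallest full-window ratios at the same places, at a higher level in between. gfp::his-61 carries gfp on a histone H2A gene at its own locus on chromosome IV, and 718 of the 720 gfp bases match at the same place. Its prg-1 library (WM753) carried prg-1(ne4766) and his-61(ne4851), against his-61(ne4847) with prg-1 intact (WM749), 1 library each and none shared with the cdk-1::gfp comparison. An effect of prg-1 and one of the his-61 allele thus cannot be told apart here either, and the prg-1 allele is not that of WM737. There gfp had 2361 ppm in prg-1 and 1415 ppm in the intact library, a ratio of 1.67 (1.61 to 1.73). The largest window ratio was again that of bases 401 to 500, at 3.41 (3.06 to 3.80), followed by bases 301 to 400 at 2.47 (2.25 to 2.72) and bases 501 to 600 at 1.83 (1.67 to 2.01). The first 100 bases were again lower in prg-1, with 115 ppm against 167.5 ppm in the intact library, a ratio of 0.689 (0.602 to 0.787). The reporters differed at bases 201 to 300, where the ratio was 1.42 (1.31 to 1.55) on gfp::his-61 and 0.949 on cdk-1::gfp. Outside the middle as a whole, gfp::his-61 was higher in prg-1, with a ratio of 1.21 (1.15 to 1.27), so that its excess was not confined to the middle. The middle held 54.2% of gfp reads in prg-1 (53.1 to 55.4), against 36.9% in the intact library (35.5 to 38.2).

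**Figure D3:**
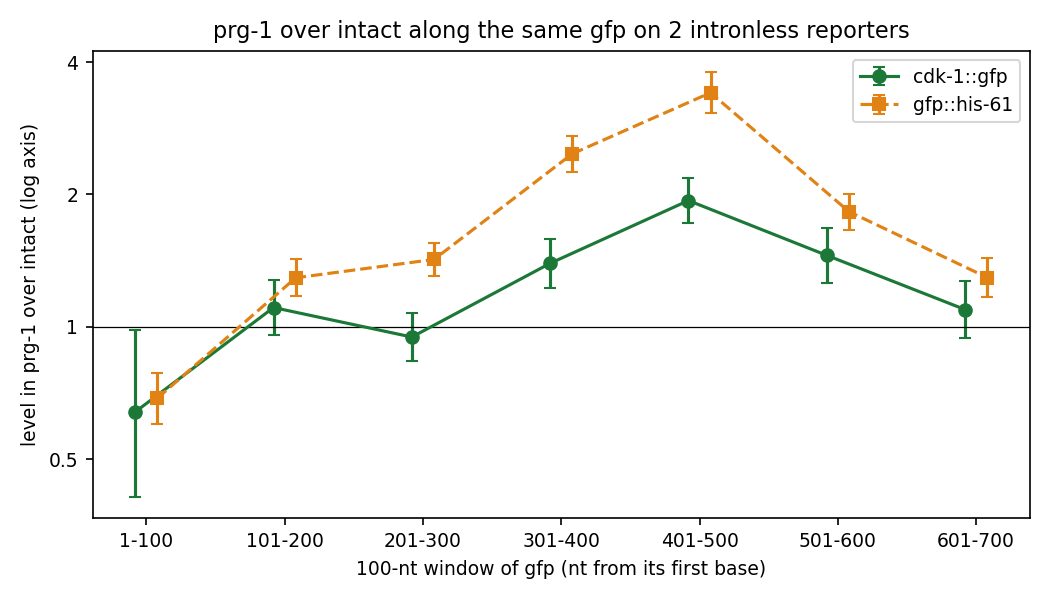
Ratio of the level in prg-1 to that in the intact library (log axis) in 100-nt windows of gfp, for cdk-1::gfp and gfp::his-61, with 95% counting intervals. On both reporters the ratio is highest at bases 401 to 500 (1.94 and 3.41) and below 1 at bases 1 to 100 (0.641 and 0.689), though that of cdk-1::gfp is 1.59 when scaled by cdk-1 coding reads.

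Site by site the likeness was partial. Over the 59 gfp positions with at least 20 reads on each reporter, the log2 ratios of prg-1 over intact were correlated at 0.47 (Pearson) and 0.50 (Spearman). The points share base composition, and neighbouring reads overlap. The ratio was above 1 on both reporters at 40 positions, below 1 on both at 3, below 1 only on cdk-1::gfp at 15 and below 1 only on gfp::his-61 at 1. The median ratio was 1.24 on cdk-1::gfp and 1.70 on gfp::his-61. Base 450 had a ratio of 4.03 (3.39 to 4.81) on gfp::his-61, base 453 one of 4.19 (3.07 to 5.80), base 426 one of 2.85 (2.06 to 4.01) and base 333 one of 2.79 (2.24 to 3.48). All 4 were thus higher in prg-1 on both reporters, as were 40 of the 59 positions. They were named as high sites of prg-1 on cdk-1::gfp, which favours ratios above 1 there. Since most positions were above 1 on each reporter, the count of 40 alone does not show likeness site by site. Base 202, at 0.818 on cdk-1::gfp, had a ratio of 2.33 (1.76 to 3.10) on gfp::his-61. Base 620, at 0.391 on cdk-1::gfp, had one of 1.70 (0.978 to 3.00) there.

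On cdk-1 coding the lower level in prg-1 was spread over its whole length. The reporter and the worm's own cdk-1 share this sequence, and their reads cannot be separated. All 10 windows of about 100 nt were lower in prg-1, with ratios to the intact library of 0.268 to 0.747, and in 6 of them the interval lay below 1. The first 100 bases had 8.07 ppm in prg-1 and 30.2 ppm in the intact library, a ratio of 0.268 (0.145 to 0.466). Bases 801 to 900 had 10.6 ppm in prg-1 and 29.3 ppm in the intact library, a ratio of 0.362 (0.210 to 0.598). Across the 10 windows the levels of both libraries were correlated at 0.85 (Pearson) and 0.90 (Spearman), so the shape was alike at a lower level.

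Other libraries of the reporter placed prg-1 lowest on this part. cdk-1 coding had 65.6 ppm in prg-1, 234 ppm (217 to 251) in the intronless reporter in rde-3, a mutant of a nucleotidyltransferase needed for 22G-RNAs of the silencing Argonautes, and 197 ppm (179 to 216) in the strain with introns. prg-1 was at 0.281 times the rde-3 level (0.231 to 0.339) and 0.333 times the level with introns (0.272 to 0.406). It was below the rde-3 library in 9 of the 10 windows and below the library with introns in 10 of 10. On gfp the order differed, with 3.48 ppm in rde-3 and 25.3 ppm with introns, against 1491 ppm in prg-1.

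**Figure D4:**
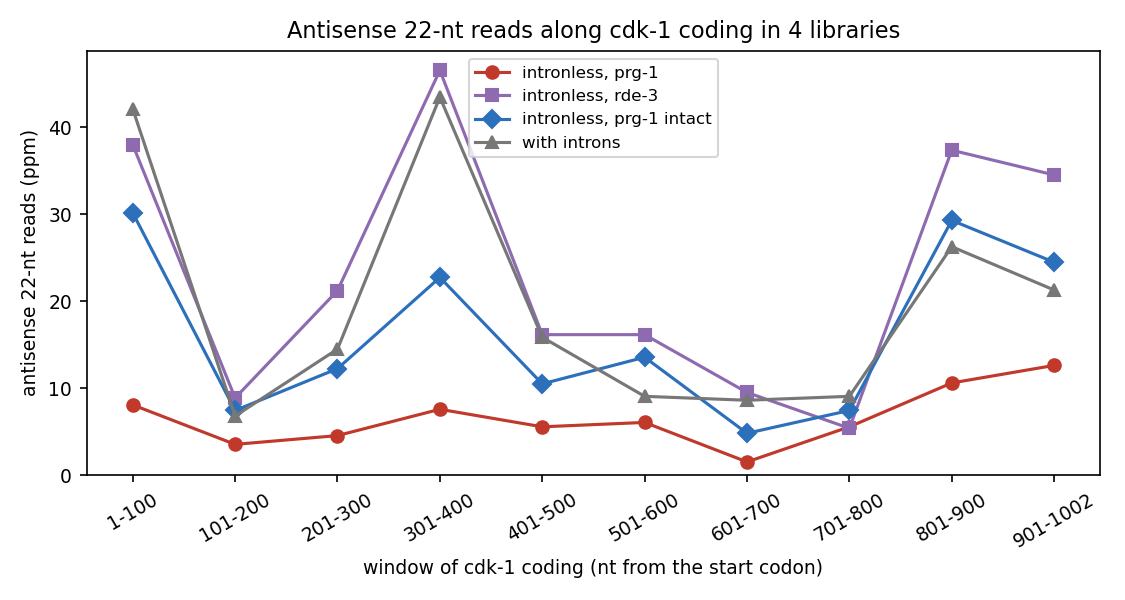
Level of antisense 22-nt reads (ppm) in windows along cdk-1 coding, counted from the start codon, in the prg-1, rde-3, intact and intron-containing libraries, 1 line each. The prg-1 line is below the intact line in all 10 windows.

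Single sites of cdk-1 coding held few reads. Base 60 had 6 reads in prg-1, against 20 in the intact library, a ratio of 0.346 (0.114 to 0.894), and it also had 36 reads in rde-3 and 27 with introns. Base 300 had 3 reads in prg-1 and 16 in the intact library, a ratio of 0.216 (0.0404 to 0.756). Base 921 had 4 reads in prg-1 and 17 in the intact library, a ratio of 0.272 (0.0665 to 0.833). These were the 3 highest cdk-1 sites of the intact library. That choice favours ratios below 1, so their intervals are no test of a lower level. Base 51 had no read in prg-1 and 10 in the intact library, a ratio with an upper limit of 0.515. Its level in prg-1 was 2.89-fold lower when taken as 3 reads, without counting error. It had 12 reads in rde-3 and 17 with introns. The highest cdk-1 site of the prg-1 library was base 765, with 7 reads in prg-1 against 2 in the intact library, a ratio of 4.04 (0.769 to 39.9). Base 123, also among the 3 highest of the prg-1 library, had 5 reads in prg-1 and 7 in the intact library. Its ratio was 0.824 (0.206 to 3.02). Reads began at 65 positions of cdk-1 coding in prg-1 and at 110 in the intact library, of which 55 were shared. The 55 found in the intact library alone held 106 reads, while the 10 found in prg-1 alone held 12.

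cdk-1 and gfp reads also differed from each other in their last base, in prg-1 as in the intact library. A last base that did not match the reference was found in 11 of 130 cdk-1 reads in prg-1, or 8.46% (4.30 to 14.6), and in 26 of 372 in the intact library, or 6.99% (4.62 to 10.1). On gfp it was found in 40 of 2956 reads in prg-1, or 1.35% (0.968 to 1.84), and in 37 of 2644 in the intact library, or 1.40% (0.987 to 1.92). On cdk-1 the unmatched base was U (T in the files) in 10 of the 11 reads in prg-1 and 25 of the 26 in the intact library. On gfp it was U in 18 of 40 in prg-1 and 21 of 37 in the intact library. In rde-3 the cdk-1 share was 6.23% (4.60 to 8.23), and with introns it was 6.90% (4.70 to 9.70).

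The borders of gfp showed how far the reads ran into the neighbouring sequence. Reads whose G lay in the first 21 nt of gfp, and which thus span its border with cdk-1, numbered 1 in prg-1 and 3 in the intact library. Bases 1001 and 1002 of cdk-1 coding, in the linker codon, had no read in prg-1 and 2 reads each in the intact library. At the other end the border was well covered. Base 8 of the 3′ flank, whose read covers the stop codon and the end of gfp, had 32 reads in prg-1, against 45 in the intact library, a ratio of 0.821 (0.505 to 1.32), and 0 in rde-3 and 0 with introns. Over all sites in the first 21 nt of the flank prg-1 had 18.2 ppm (12.7 to 25.1) and the intact library 23.2 ppm (17.3 to 30.3), a ratio of 0.784 (0.499 to 1.22).

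The whole 3′ flank had 31.3 ppm (24.0 to 40.1) in prg-1 and 48.1 ppm (39.5 to 57.9) in the intact library, a ratio of 0.651 (0.469 to 0.896), or 1.61 (1.16 to 2.22) when scaled by cdk-1 coding reads. The flank beyond the reads that touch gfp had 26 reads in prg-1, against 57 in the intact library, a ratio of 0.526 (0.318 to 0.851), which is closer to the ratio of cdk-1 coding (0.403) than to that of gfp (1.29). Its level was 13.1 ppm in prg-1, 34.5 ppm in rde-3, 24.9 ppm in the intact library and 20.8 ppm with introns. In this stretch base 82 was the highest site of the intact library, with 1 read in prg-1 and 7 in the intact library, a ratio of 0.165 (0.00366 to 1.28).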

How the data were processed

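Enriched small RNAs were made ligatable with the polyphosphatase PIR-1, joined to adaptors and copied by PCR, per the labels' protocols. The submitters' processing notes name cutadapt, Bowtie2 and build WBcel235, and the sources used here give no versions or settings. The deposited files give, per distinct sequence, a raw read count, and the authors' RPM value (in the files ppm), which scales the count by 1 total per library, 1982687.8 in prg-1 and 2288392.2 in the intact library. In the 6 libraries used, every sequence had 22 nt, began with G and differed from the antisense reference by at most 1 mismatch. Such reads were kept. No column of per-sample values was left unused (0).

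Reads were summed by the base paired with the 5′ G. Levels have exact Poisson, shares Clopper-Pearson and ratios exact conditional intervals at 95%. The ratio of ratios has a log-scale interval. The code was tested on simulated Poisson libraries. Named sites are the 8 highest of each library, the 5 largest and 5 smallest ratios among positions with at least 20 reads, the 3 highest of cdk-1 coding and the 2 highest of the 3′ flank, and sites at borders. Not all of these are described. The sites at cdk-1 base 51 and the middle of gfp were chosen after their values were seen. The comparison, sites and rules were chosen with earlier results of these data known. Gene coordinates come from RefSeq for WBcel235. Values were computed in Python 3.11.15 with pandas 2.3.3, numpy 2.4.6 and scipy 1.17.1, and plotted with matplotlib 3.10.9.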

Additional observations from a re-analysis of the deposited data

Results flagged for a closer look

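The reporters differed in direction outside gfp, where their sequences are not the same, and the difference was not tested. The coding part of the fused worm gene had a ratio of prg-1 over intact of 0.403 (0.328 to 0.494) on cdk-1::gfp, against 4.54 (3.60 to 5.78) for his-61 on gfp::his-61. For the 3′ flank this ratio was 0.651 (0.469 to 0.896) on cdk-1::gfp, against 13.7 (11.9 to 16.0) on gfp::his-61. Each is 1 library over 1 library. Reads on his-61 coding were not checked for matches to other histone genes, so they were not shown to come from the reporter alone.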

How the results depend on the processing

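Of 52 recalculations, 35 stayed within the interval, the tolerance of 0.05 for a correlation, or the 1.5-fold range for a count, of the value given above. Among the 35 are the cdk-1 coding and 3′ flank ratios with the highest site of each library left out. These could not change, as those sites lie in gfp. Unscaled reads moved every cdk-1::gfp ratio by -0.21 on the log2 scale and scaling by cdk-1 coding reads moved it by 1.31. On unscaled reads the total ratio of prg-1 over intact was 1.01, gfp 1.12, its middle 1.39, gfp outside the middle 0.880 and gfp of gfp::his-61 1.54. Per cdk-1 coding read the total ratio was 2.88 and gfp 3.20, and 2 ratios turned, the 3′ flank to 1.61 and the first 100 bases of gfp to 1.59. Of the 67 positions compared, that scaling put 59 at least 2-fold higher in prg-1 and 0 lower, against 8 and 6. With at least 10 reads 14 were higher and 19 lower, so that the lower ones outnumbered the higher. Most of those 19 were in cdk-1 coding, where few positions reach 20 reads. With at least 50 reads 3 were higher and 2 lower. The positions compared at 10 and 50 reads were not counted, so these numbers have no share beside them. Taking the 5 highest gfp positions in place of 10, the share in prg-1 minus that in the intact library was 1.58 percentage points (-0.75 to 3.90), no longer beyond counting error, against 4.29 (1.69 to 6.88). With the middle moved 50 nt downstream, a setting chosen after seeing the data, its ratio on gfp::his-61 was 2.07. The causes were not tested. No paired analysis was possible because each strain had 1 library. Single cdk-1 sites, at 20 reads or fewer, are limited by depth.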
